A study of Rattus norvegicus with 38 samples.

Results

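The microRNAs miR-494, miR-188, miR-212 and miR-500 were followed through the livers of rats fed 2-acetylaminofluorene, 7 other chemicals or the control diet. They were chosen by the names rno-miR-494, rno-miR-188, rno-miR-212 and rno-miR-500 in the array files, because earlier results of these data had picked them out with 2-acetylaminofluorene, and they are 4 of the 350 rat miRNAs on the array. Their 2-acetylaminofluorene values against control are therefore given as a description, with no test. Each is read by 2 probes of 10 spots, 8 of the 938 probes in all.

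Liver RNA from 38 male Fischer (F344) rats, recorded as 8 weeks old and sampled at 90 days of the study, was hybridized to 1-colour Agilent miRNA arrays, 1 animal per array. Groups received, in the diet, 2-acetylaminofluorene at 40 ppm (5 rats), Diethylthiourea at 2500 ppm (4), Benzophenone at 1250 ppm (5), Phenobarbital at 1000 ppm (3), Diethylhexylphthalate at 12000 ppm (4), Monuron at 1500 ppm (4), Chlorendic Acid at 1250 ppm (4), Methapyrilene HCl at 250 ppm (4) or the control diet (5). The animals shared cages, and which animals shared a cage is not stated in the sources used here, so diet and cage cannot be told apart. Each chemical was given at a single dose and time, and all chemicals share the 5 control arrays.

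2-acetylaminofluorene is an aromatic amine long used in rats to produce liver tumours, and its metabolites bind DNA. A microRNA is cut from a hairpin and guides repression of messenger RNAs that pair with its seed, the bases near its 5′ end. miR-494 belongs to the large imprinted microRNA cluster of the Dlk1-Dio3 locus, which is active in the embryo and mostly quiet in adult liver. miR-188 and miR-500 are made from a cluster within the chloride transporter gene Clcn5, and miR-212 is made together with miR-132 from a short locus known for its response to the transcription factor CREB in neurons.

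The array names give no arm, so both arms of each hairpin are shown, from RefSeq on GRCr8, all on the plus strand, with the seed (bases 2 to 8) in capitals. All 4 hairpins were matched by name. They are shown so that shared seeds and shared loci can be read beside the shared levels.
rno-miR-494-5p: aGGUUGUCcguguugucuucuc
rno-miR-494-3p: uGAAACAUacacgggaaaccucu
rno-miR-188-5p: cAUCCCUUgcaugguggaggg
rno-miR-188-3p: cUCCCACAugcaggguuugc
rno-miR-212-5p: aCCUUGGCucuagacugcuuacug
rno-miR-212-3p: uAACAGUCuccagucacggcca
rno-miR-500-5p: aAUCCUUGcuaucugggugcuuag
rno-miR-500-3p: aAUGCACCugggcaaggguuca
No seed is shared between members. miR-494 lies at chr6:134550130-134550185 from the start of its 5p arm to the end of its 3p arm, within the uncharacterised gene LOC102555254. miR-188 lies at chrX:17919595-17919653 and miR-500 at chrX:17930657-17930716, both within Clcn5, with 11062 bases between the starts of the genes Mir188 and Mir500. miR-212 lies at chr10:60521771-60521832, 262 bases from Mir132 by gene starts, and no annotated gene encloses it.
Outside the set, the miR-212-3p seed recurs in its neighbour miR-132 and the miR-500-3p seed in its neighbour miR-501, so these pairs are shown too. The miR-494-5p seed is also that of miR-410-5p and miR-496-5p.
rno-miR-132-3p: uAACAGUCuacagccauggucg
rno-miR-501-3p: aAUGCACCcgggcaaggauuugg

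Values are levels, log2 of a probe's background-subtracted signal over the array's 75th percentile, taken over 137 probes detected on all arrays, so 0 is the brightness of that percentile. Levels under -5.50 were set to that floor. A probe is detected on an array when over 50% of its spots are well above background, and a miRNA takes its brightest probe. All 4 members passed the filter for testing, with 129 of 350 miRNAs. miR-494 and miR-500 were detected on all 38 arrays. miR-188 was detected on every array of 6 groups, control among them, and miR-212 on every array only with 2-acetylaminofluorene and Diethylthiourea. miR-122, the dominant hepatocyte miRNA, was at 6.23 ± 0.0911 with 2-acetylaminofluorene and 6.40 ± 0.243 with control (SD, n = 5 each), matching the labelled tissue. The arrays held 90 to 141 detected miRNAs, and their 75th percentiles ran from 424 to 1086 signal units, the lowest being 2-acetylaminofluorene rat 5. No 2 arrays of the 703 pairs held identical values.

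With 2-acetylaminofluorene, miR-494 averaged 4.003-fold, miR-188 2.28-fold, miR-500 1.65-fold and miR-212 1.39-fold of control. By the size of the difference they ranked 2, 3, 7 and 16 among the 129 tested miRNAs, whose median difference was -0.0036 (log2). These ranks restate how the members were picked. Over all 129, 11.6% were called with 2-acetylaminofluorene at an adjusted p under 0.05 (limma, Benjamini-Hochberg), 9.3% higher and 2.33% lower.

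miR-494 was at 2.33, 1.23, 3.03, 2.58 and 0.82 in the 5 livers with 2-acetylaminofluorene, against 0.32, 0.80, -0.27, -0.38 and -0.47 in the 5 control livers. All 5 treated levels were above all 5 control levels, but rat 5 of the treated group, at 0.82, was close to control rat 2, at 0.80. The mean level was 2.00 ± 0.93 with 2-acetylaminofluorene and -0.0013 ± 0.54 with control (SD, n = 5 each), a difference of 2.00 ± 0.47 (log2, SE of the fit). Of the 129 miRNAs, 4.65% had all treated levels above all control levels, and 3.1% all below. In signal units before scaling, rat 5 read 750 units, inside the control range of 567 to 846. Without overlap in the main scaling, the groups did overlap when the 75th percentile was taken over all probes (lowest treated 5.63, highest control 6.47), by total gene signal (0.37 and 0.44) and in the authors' deposited table (4.66 and 4.96).

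miR-188 was at -3.64, -3.95, -2.38, -3.18 and -3.89 with 2-acetylaminofluorene, against -4.18, -3.35, -5.38, -5.50 and -4.56 with control. Treated rats 3 and 4 were above every control, and the other treated rats lay within the control range, below control rat 2. The means were -3.41 ± 0.65 with 2-acetylaminofluorene and -4.60 ± 0.89 with control (SD, n = 5 each), and the difference was 1.19 ± 0.43 (log2, SE). The median signal was 59.8 units in treated livers and 33.2 units in control livers, where the floor is 16.7 units on the median array. With normexp background correction the difference was 0.43.

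miR-212, known with miR-132 as an activity-induced miRNA in neurons, was at -4.27, -3.78, -3.58, -5.17 and -3.73 with 2-acetylaminofluorene, against -5.39, -3.44, -4.29, -4.94 and -4.82 with control. It was detected on 5 of 5 treated and 4 of 5 control arrays. Control rat 2 had the highest level of the 10, and treated rat 4 lay below 4 of the 5 controls, so the groups overlapped over most of their range. The difference was 0.47 ± 0.33 (log2, SE), and it was 0.19 with the slide as a block and 0.096 with scaling over all probes. Single arrays moved it too, to 0.27 without control rat 1, 0.76 without control rat 2 and 0.74 without 2-acetylaminofluorene rat 4. In signal units before scaling, the median was 37.1 in treated livers and 34.6 in control livers. Treated arrays ran from 29.2 to 67.5 units and control arrays from 14.5 to 44.9. Treated rat 5, at -3.73 after scaling, read 31.9 units.

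miR-500 was at -4.17, -3.63, -3.71, -4.45 and -2.93 with 2-acetylaminofluorene, against -4.66, -4.47, -4.55, -4.48 and -4.33 with control. By the brightest probe in the main scaling, 4 treated rats exceeded every control. The level of rat 4 lay among the controls, whose spread was narrow. The means were -3.78 ± 0.58 with 2-acetylaminofluorene and -4.50 ± 0.12 with control (SD, n = 5 each), a difference of 0.72 ± 0.23 (log2, SE). Rat 5, lowest of the treated group for miR-494, was highest for miR-500, and without it the miR-500 difference was 0.51. In signal units before scaling, rat 5 read 55.8 units, below treated rat 2 at 74.6. Treated arrays then ran from 39.7 to 74.6 units and control arrays from 22.0 to 47.5. With normexp background correction the difference was 0.19, and no treated level exceeded the highest control.

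**Figure D1:**
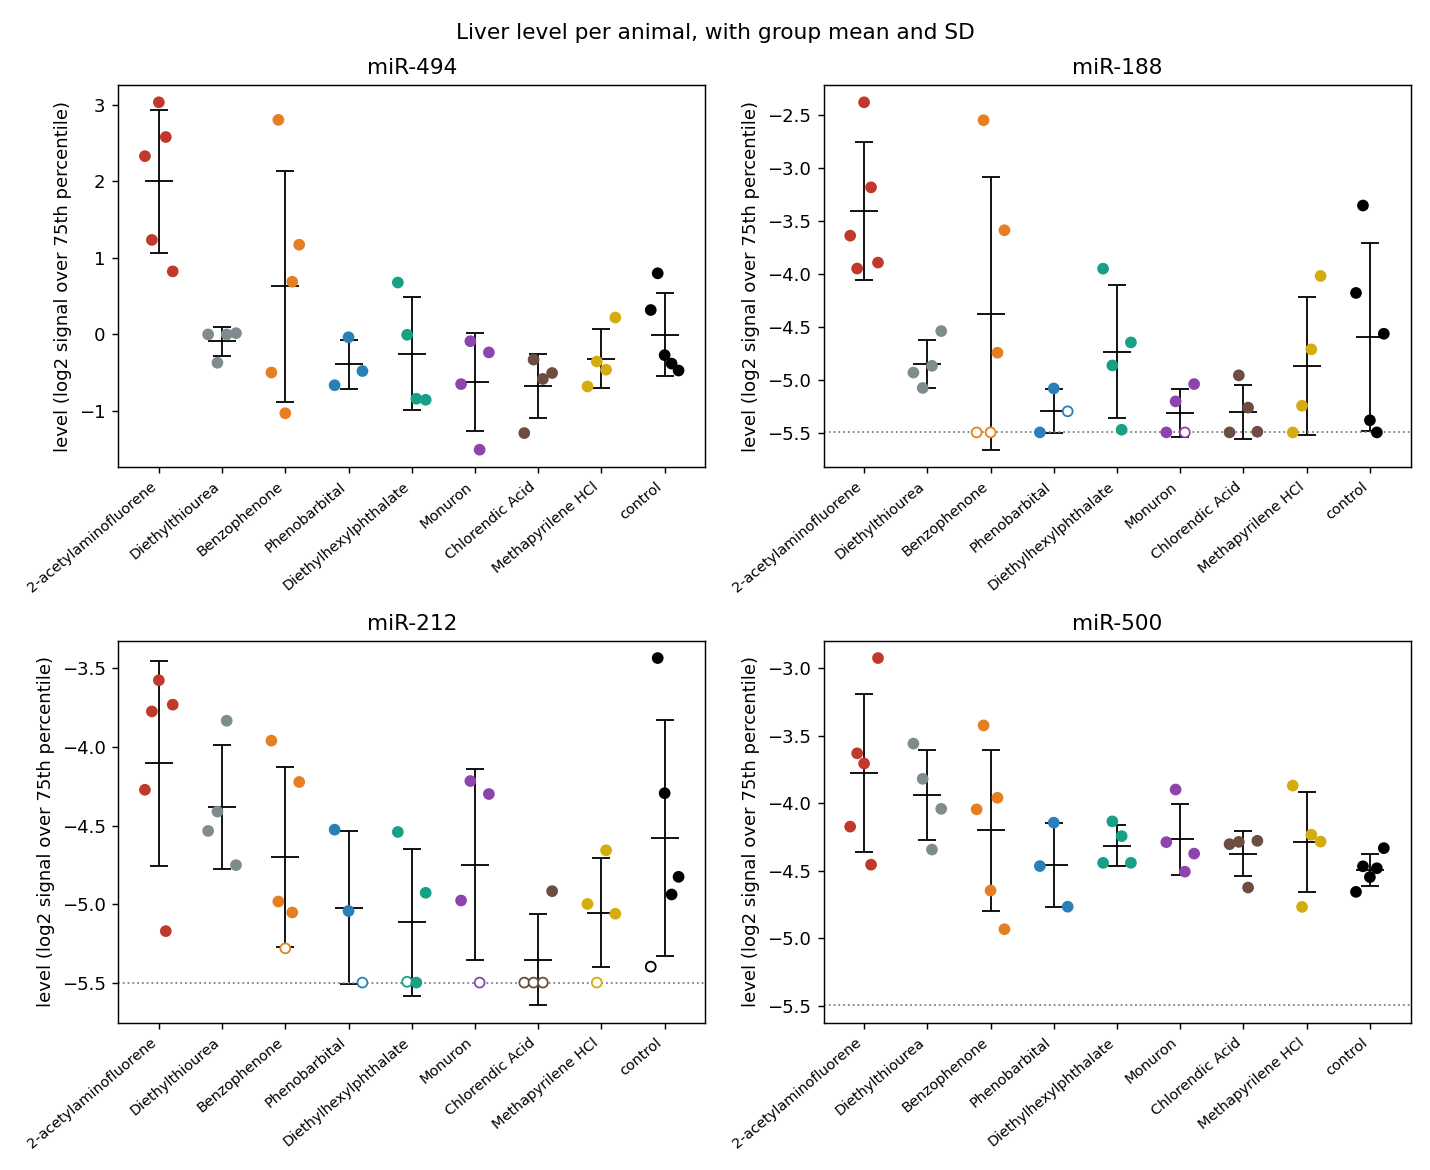
Level of each miRNA (log2 of signal over the array's 75th percentile, vertical axis) in each of 38 livers by diet, with the group mean and SD as bars; open circles are arrays where the miRNA was not detected and the dotted line is the floor at -5.50. For miR-494 the 5 livers with 2-acetylaminofluorene sit between 0.82 and 3.03, and Benzophenone rat 2 reaches 2.80, while the control livers reach 0.80.

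The probes of each member were compared because a single probe can misread. The second miR-494 probe ran from -0.19 to 2.17 with 2-acetylaminofluorene and from -1.89 to -0.28 with control, also without overlap, and gave a difference of 2.48 against 2.00 for the first. The miR-188 probes gave 1.19 and 1.15, and the miR-500 probes 0.72 and 0.86 (log2). The second miR-500 probe overlapped more, from -5.11 to -3.34 with 2-acetylaminofluorene and from -5.50 to -4.35 with control. It was detected on 3 of 5 control arrays. Within groups, the probes of a member moved together over 38 arrays, with r of 0.99 for miR-494, 0.99 for miR-188 and 0.89 for miR-500. The second miR-212 probe was at the floor on all 38 arrays, so the miR-212 values rest on 1 probe.

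Across the 9 diets miR-494 was highest with 2-acetylaminofluorene, then with Benzophenone at 0.63 ± 1.504 (SD, n = 5), and its other group means ran from -0.0013 to -0.68 in the order control, Diethylthiourea, Diethylhexylphthalate, Methapyrilene HCl, Phenobarbital, Monuron and Chlorendic Acid. Neighbours in that order overlapped in every case, 2-acetylaminofluorene with Benzophenone included. The Benzophenone mean hides a wide spread, with levels of -0.50, 2.80, -1.03, 0.69 and 1.17. Rat 2 of that group lay inside the 2-acetylaminofluorene range, and rats 1 and 3 lay below every control.

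miR-188 followed the same order at the top, with -4.37 ± 1.28 in the Benzophenone group (SD, n = 5), where rat 2 reached -2.55 and rats 1 and 3 were at the floor and not detected. Its lowest means were -5.31 with Monuron, -5.30 with Chlorendic Acid and -5.29 with Phenobarbital, where at least 1 array of each group was at the floor. miR-212 was next highest with Diethylthiourea at -4.38 ± 0.39 (SD, n = 4), and lowest with Chlorendic Acid at -5.35 ± 0.29 (SD, n = 4). miR-500 was next highest with Diethylthiourea at -3.94 ± 0.33 (SD, n = 4), and it was lowest in control.

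The members were picked for 2-acetylaminofluorene, but with earlier results of these data known. That choice may have passed over miRNAs that responded to the other 7 chemicals, which also share the control arrays. The counts of calls below are therefore not independent of the choice. None of the 28 pairs of a member and a chemical was called against control (limma over 129 miRNAs, Benjamini-Hochberg adjusted p in each comparison, lowest 0.0955), and 2 had an unadjusted p under 0.05. Of all miRNAs tested, 0% were called with Diethylthiourea, 4.65% with Benzophenone, 3.88% with Phenobarbital, 14.7% with Diethylhexylphthalate, 3.88% with Monuron, 29.5% with Chlorendic Acid and 4.65% with Methapyrilene HCl. The 28 differences ran from -0.77 to 0.63 (log2), 18 of them below 0, with SE up to 0.55. Those of miR-500 were all above 0, from 0.038 with Phenobarbital to 0.56 with Diethylthiourea. An F test over the 7 differences called 0 of the 4 members, with adjusted p of 0.275 for miR-212, 0.346 for miR-494, 0.455 for miR-188 and 0.576 for miR-500, beside 33.3% of all 129.

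miR-212 with Chlorendic Acid had the smallest adjusted p. Its levels were -5.50, -5.50, -5.50 and -4.92 with Chlorendic Acid, where 3 arrays were at the floor and only rat 4 was detected, against 4 detected of 5 in control. The difference was -0.77 ± 0.35 (log2, SE), with an unadjusted limma p of 0.0336 and an adjusted p of 0.0955. The call depended on the processing: adjusted p was 0.0123 with scaling over all probes, 0.0121 with quantile normalization, 0.0405 with a lower floor, 0.0347 without control rat 1 and 0.000652 on the authors' deposited table, whose difference was -2.93. It was 0.0728 with normexp, 0.103 with the mean of the probes and 0.149 with total gene signal.

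miR-500 with Diethylthiourea had levels of -3.56, -3.82, -4.34 and -4.04, against -4.66 to -4.33 in control. Of the 4 treated rats, 3 exceeded every control. The difference was 0.56 ± 0.24 (log2, SE), with an unadjusted limma p of 0.0300 and an adjusted p of 0.675, and it was not called. miR-494 with Benzophenone differed from control by 0.63 ± 0.47 (adjusted p = 0.707 by limma).

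**Figure D2:**
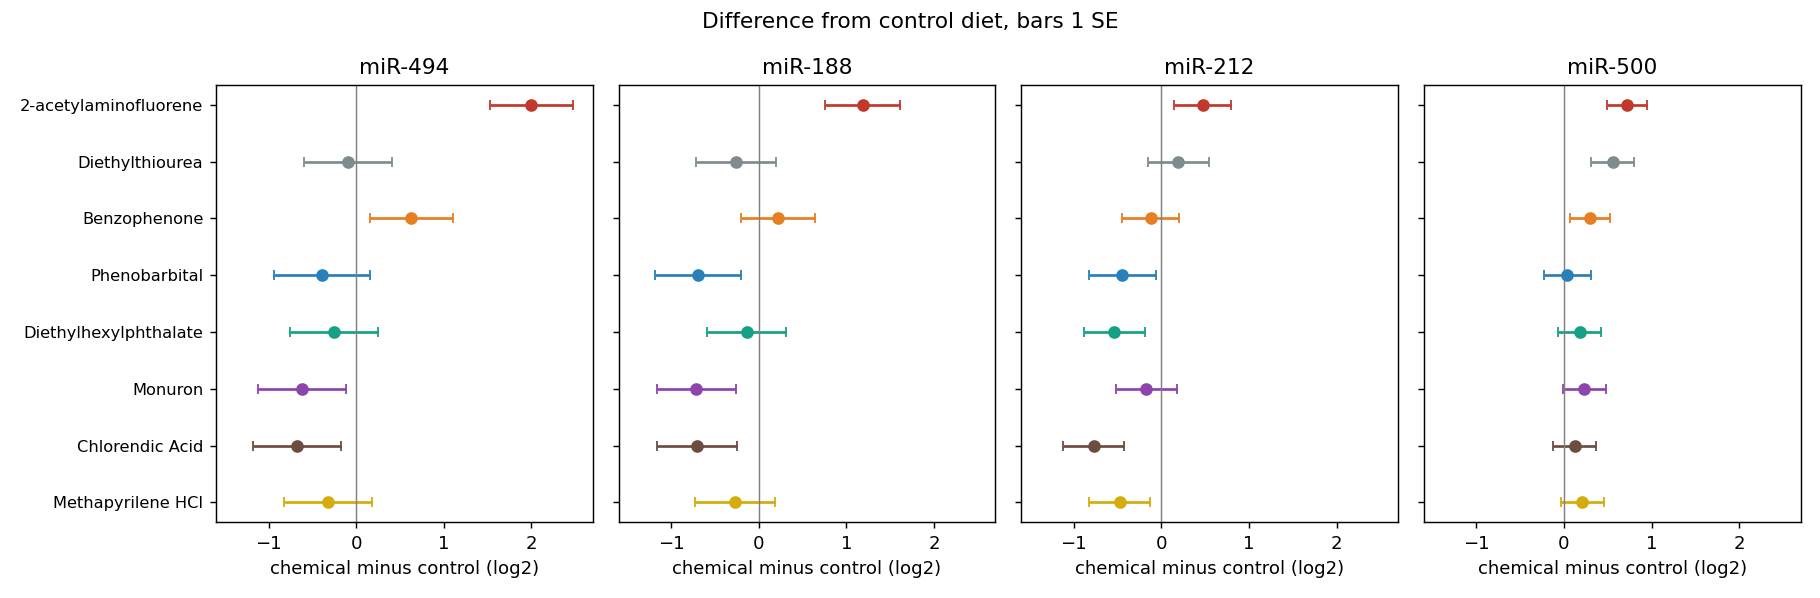
Difference of each chemical from control (log2, horizontal axis) for the 4 miRNAs, with points for the fitted difference and bars of 1 SE. miR-494 with 2-acetylaminofluorene stands at 2.00, and the 28 differences with the other 7 chemicals lie between -0.77 and 0.63.

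Animals on the same diet differed from each other, and these deviations from the group mean do not use the difference that chose the members. miR-494 and miR-188 rose and fell together from animal to animal, and no other pair of members passed the test. Over 38 livers their deviations had Pearson r of 0.857 and Spearman rho of 0.805 (permutation within groups, two-sided, p = 1e-05 for both, the smallest 100000 resamples can give, and 6e-05 adjusted over 6 pairs). The deviations were on the same side of the group mean in 29 of 38 livers. Leaving out the 2 livers farthest from the median of miR-494, Benzophenone rats 2 and 3, r was 0.784.

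In the 33 livers outside the 2-acetylaminofluorene group, r between miR-494 and miR-188 was 0.861, and without the Benzophenone livers too it was 0.728. The other 5 pairs had r from 0.039 to 0.323 without the 2-acetylaminofluorene livers. Without both groups they ran from -0.076 to 0.450, the highest being miR-494 with miR-212, followed by miR-188 with miR-212 at 0.375. Both exclusions were chosen after the values were seen.

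The remaining 5 pairs had Pearson r from 0.049 to 0.229, with adjusted permutation p of 0.751 or more. For their Spearman rho the adjusted permutation p was 0.560 to 0.651. miR-188 and miR-500, encoded in the same intron cluster, had r of 0.049 and rho of -0.112 (n = 38, adjusted permutation p of 0.849 and 0.651). The pair miR-494 and miR-500 had r of 0.055, which became -0.334 without Benzophenone rats 2 and 3. Over all 8256 pairs of tested miRNAs, which share libraries and scaling, the median r was 0.17 and the central 90% ran from -0.33 to 0.66. Of these pairs, 99.6% had a lower r than miR-494 with miR-188.

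With normexp, r was 0.535 for miR-494 with miR-188, and 0.805, 0.835 and 0.901 among the dim miR-188, miR-212 and miR-500. Using only arrays on which both members were detected, miR-494 with miR-188 kept r of 0.817, and in the authors' deposited table r was 0.904.

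**Figure D3:**
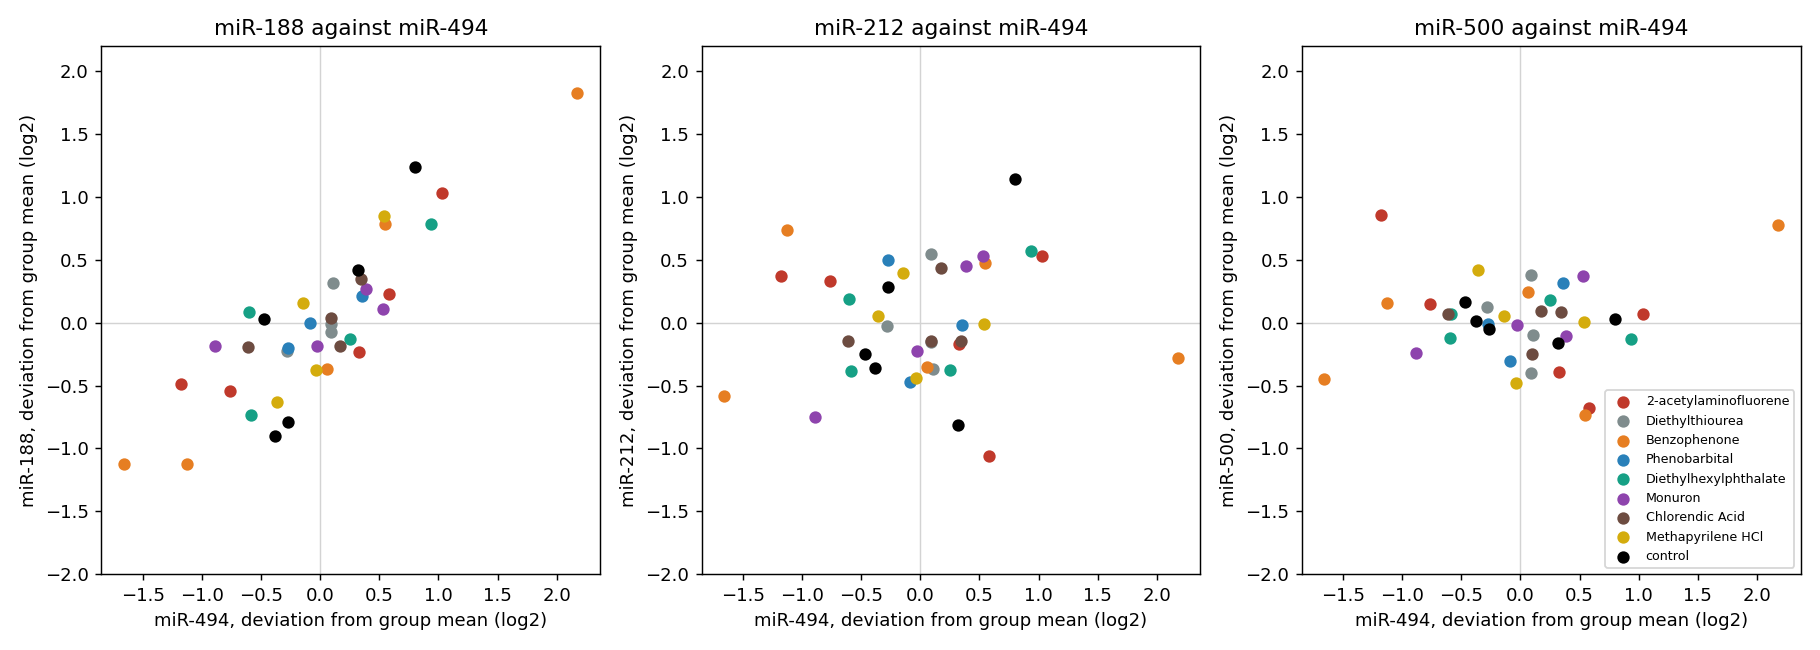
Deviation of each liver from its group mean (log2) for miR-188, miR-212 and miR-500 (vertical axes) against miR-494 (horizontal axis), coloured by diet, n = 38. The points for miR-188 lie along a rising line (r = 0.857), and those for miR-212 (r = 0.112) and miR-500 (r = 0.055) do not.

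Slides were examined because the arrays lay on 6 of them. The 2-acetylaminofluorene arrays were on slides 3 (1 array), 5 (2) and 6 (2), and control arrays on slides 1 (2), 3 (2) and 4 (1). Monuron and Methapyrilene HCl shared no slide with control. For miR-494 the mean deviation from the group mean was lowest on slides 2 (-0.62) and 1 (-0.43) and highest on slide 5 (0.38). For miR-188 it was lowest on slides 2 (-0.56) and 1 (-0.55) and highest on slides 3 (0.32) and 5 (0.30).

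Neither these nor the other members were called by an F test over slides beside the diets (limma, adjusted p of 0.290 for miR-188, 0.482 for miR-212, 0.482 for miR-494 and 0.797 for miR-500). That test called 0% of the 129 miRNAs, and unadjusted p was 0.0135 for miR-188, 0.0490 for miR-212, 0.0512 for miR-494 and 0.184 for miR-500. With both diet and slide removed, r between miR-494 and miR-188 was 0.794. Within single slides of 6 or more arrays it was 0.638 on slide 1 (n = 6), 0.499 on slide 4 (n = 7), 0.911 on slide 5 (n = 8) and 0.960 on slide 6 (n = 7).

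Slide 3 alone carried both 2-acetylaminofluorene and control. There the 1 treated array exceeded the mean of 2 control arrays by 2.42 for miR-494 and 0.78 for miR-188, and lay below it by -1.04 for miR-212 and -0.055 for miR-500 (log2). With slide as a block the differences from control were 1.53 ± 0.51 for miR-494, 0.72 ± 0.43 for miR-188, 0.19 ± 0.35 for miR-212 and 0.71 ± 0.26 for miR-500 (SE).

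**Figure D4:**
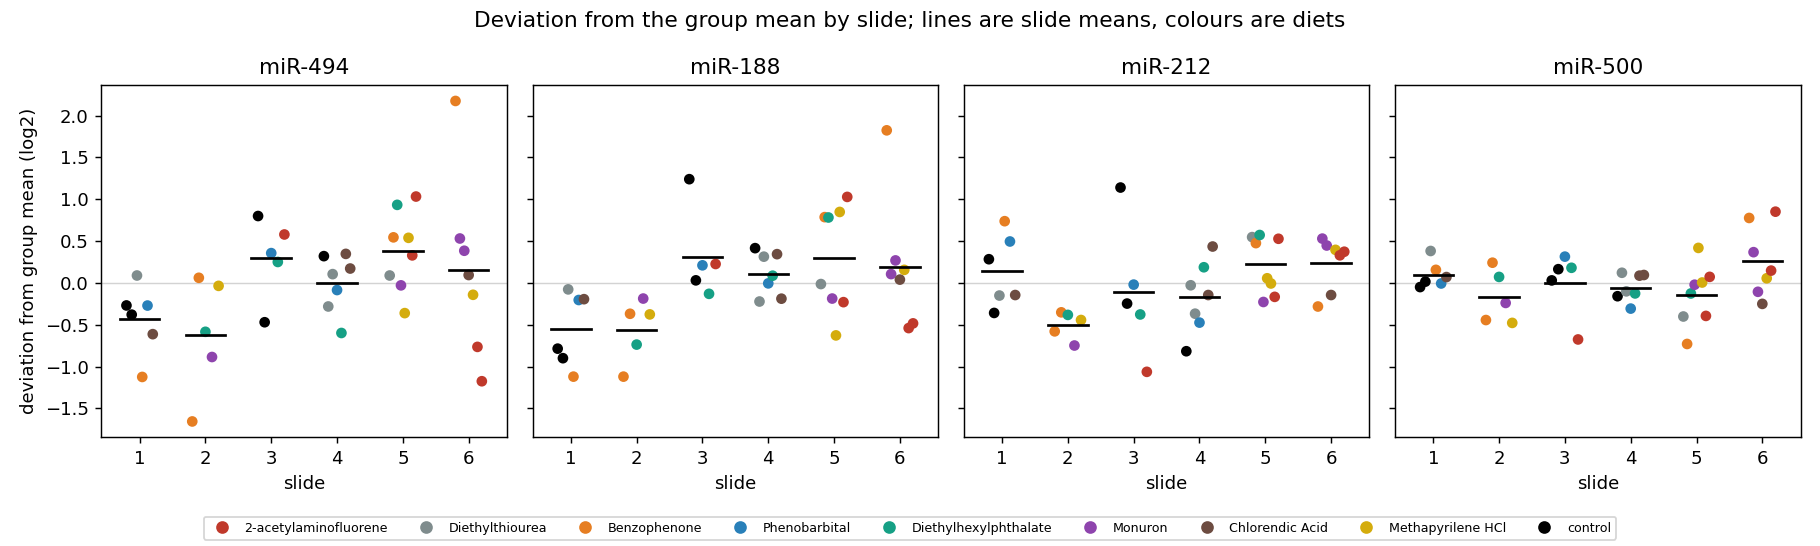
Deviation of each liver from its group mean (log2, vertical axis) by slide (horizontal axis), coloured by diet, with the slide mean as a line. miR-494 and miR-188 are both lowest on slides 1 and 2, and miR-500 shows smaller slide means.

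Members were also set against 2 measures of each array, its 75th percentile and its number of detected miRNAs. None of the 8 relations had an adjusted permutation p under 0.5 (n = 38, r from -0.244 to 0.269), so no relation with array brightness or detection was resolved.

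By the highest r of within-group deviations (n = 38 livers), the miRNAs most like miR-494 were miR-188, then miR-214 at 0.419 and miR-466b at 0.324. For miR-188 they were miR-494, miR-320 at 0.491 and miR-214 at 0.467. For both, the step from the partner to the next miRNA was wide. miR-214 is also on the list of stellate and mesenchymal markers used below.

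miR-212 was most like miR-878 (0.867), miR-743a (0.771) and miR-324-3p (0.768), and miR-500 most like miR-652 (0.744), miR-466b (0.737) and miR-196c (0.575). Over the 9 group means, miR-494 was most like miR-188 (0.970), miR-664 (0.838) and miR-212 (0.764), and miR-188 most like miR-494, miR-1* (0.743) and miR-212 (0.730). By the same measure miR-212 was most like miR-878 (0.864), miR-1* (0.813) and let-7b* (0.791), and miR-500 most like let-7b* (0.947), miR-664 (0.801) and miR-466b (0.795). These correlations share arrays, scaling and, over group means, the high 2-acetylaminofluorene group, and carry no test. Several rest on values near the floor of -5.50. Group means ran from -5.49 to -5.08 for let-7b* and from -5.49 to -5.22 for miR-1*. All 4 Diethylhexylphthalate arrays were at the floor for miR-466b.

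The genomic neighbours were mostly unseen in these livers. Of 48 Dlk1-Dio3 miRNAs on the array besides miR-494, 45 were detected on no array, miR-409-3p was detected on 24 arrays, miR-134 on 2 and miR-300-5p on 1. Of the Clcn5 cluster, miR-501 was detected on no array, miR-532-3p on 2 and miR-532-5p on 9, and miR-132, the partner of miR-212, on none. None of the 52 was detected on every array of any group, so none was tested and no call with 2-acetylaminofluorene was possible.

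In whole liver, a change in the cells present and a change within cells cannot be told apart. With 2-acetylaminofluorene, 3 of 3 tested miRNAs of the biliary and other epithelium list (5 on the array) were called higher, and 2 of 4 of the stellate and mesenchymal list (limma, adjusted p under 0.05). Over all 129 tested miRNAs, 9.3% were called higher. The summed level of the biliary list, as a multiple of the 75th percentile, was 0.155 to 0.328 with 2-acetylaminofluorene and 0.0795 to 0.128 with control, and that of the stellate list was 0.712 to 1.18 with 2-acetylaminofluorene and 0.751 to 0.854 with control. The biliary sum also lay above every control with Phenobarbital (0.355 to 0.405) and Benzophenone (0.129 to 0.327). The same held for Chlorendic Acid (0.167 to 0.237) and Diethylhexylphthalate (0.131 to 0.183). With Diethylthiourea, Monuron and Methapyrilene HCl the biliary sum overlapped control. None of the tested hepatocyte (3), red cell (1), leukocyte (4) or endothelium (1) miRNAs was called with 2-acetylaminofluorene. Their part in the 4 members' levels was not tested.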

How the data were processed

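Per the file headers, the authors' scanner files came from Feature Extraction 10.5.1.1, and the intensity they hold for each spot is linear and background-subtracted. The authors' deposited value table is in log2 units for 167 miRNAs. Of its 6293 values, 99.4% came within 0.01 of the log2 total gene signal after 1 constant was subtracted for each array. Its column medians were 0.0162 to 0.337. The basis of the constant, and of the choice of miRNAs, is not stated in any source used. The flags in the scanner files are 0 or 1 marks per spot, set by Feature Extraction.

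Control spots and outlier spots (2.17% to 6.41% of 7000 per array) were left out. The remaining spots of a probe were averaged and divided by the array's 75th percentile over 137 probes detected on all arrays. Values were then floored at the 5th percentile of detected values and put on the log2 scale. No spot of the members was saturated. A miRNA was tested if some group detected it on all its arrays. All 38 arrays were fitted in 9 groups with limma 3.58.1 (lmFit, eBayes) in R 4.3.3, with Benjamini-Hochberg adjustment over 129 miRNAs in each comparison. Permutations (100000) shuffled animals within groups, in Python 3.11.15 with numpy 2.4.6; figures used matplotlib 3.10.9. Both steps were tested on simulated data. Alternatives were scaling over all probes, normexp (offset 50), quantile normalization, the mean of probes, the authors' table, total gene signal, a lower floor, slide or replicate number as a block, other filters and groups in the fit, and each array left out. The animals were separate by the labels, and 3 to 5 per group limit the precision.

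The members and lists were chosen with earlier results of these data known. By the naming rule, the miRNAs named besides the members are the 3 most like each member by within-group deviations and by group means, and any tested genomic neighbour, of which there was none. Outside that rule, neighbours are named for their detection or a shared seed, and miR-122 as the hepatocyte marker.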

Additional observations from a re-analysis of the deposited data

Results flagged for a closer look

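Of 32 sets of levels (4 miRNAs in 8 groups of 4 or 5 rats), 3 held a rat far from the others by Dixon's test at the 95% level. Chance flags about 1 of 20 sets without tied values. The miR-494 and miR-212 sets below held tied values, so that rate does not apply to them. miR-494 was at -0.37 in Diethylthiourea rat 2, and the other 3 rats of that group were at 0 to 0.016. On 2 of those arrays the miR-494 probe was itself the 75th percentile, which sets its level to 0. miR-212 was at -4.92 in Chlorendic Acid rat 4, and the other 3 rats were at the floor of -5.50. miR-500 was at -4.62 in Chlorendic Acid rat 3, and the other 3 rats were at -4.30 to -4.28.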

How the results depend on the processing

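All 4 differences between 2-acetylaminofluorene and control stayed above 0 under every alternative run. They moved by more than the SD between animals within groups only with normexp, to 0.43 for miR-188 and 0.19 for miR-500. That SD was 0.78 for miR-494, 0.71 for miR-188, 0.54 for miR-212 and 0.38 for miR-500. For miR-212 it was larger than the difference of 0.47 itself, so this measure could not register a fall to near 0. It is coarse for the other members too. The fall of miR-500 from 0.72 to 0.34 with scaling over all probes was not counted as a move. Nor were the lower differences of miR-494 and miR-188 with slide as a block. Scaling over all probes shifted the median difference over 129 miRNAs to -0.33 and the authors' table to -0.24, where the difference was 1.63 and 1.89 for miR-494, 0.85 and 0.99 for miR-188, 0.096 and 0.23 for miR-212, and 0.34 and 0.54 for miR-500. With each array left out in turn, it ran from 1.74 to 2.30 for miR-494, 0.93 to 1.50 for miR-188, 0.27 to 0.76 for miR-212 and 0.51 to 0.89 for miR-500. Without both Benzophenone rat 2 and 2-acetylaminofluorene rat 5, a choice made after seeing the data, it was 2.30, 1.31, 0.38 and 0.51.

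The median r over the 6 pairs was 0.145. It was -0.0047 with scaling over all probes (turned in sign), 0.67 with normexp, 0.041 with diet and slide removed, 0.048 with both members detected, 0.284 without Benzophenone rat 2 and 2-acetylaminofluorene rat 5, 0.270 without both whole groups, and 0.049 to 0.248 with each array left out. For miR-494 with miR-188, leaving out each array gave 0.794 to 0.873. The causes were not tested. The count of members called lower with the other 7 chemicals, 0, became 1 with scaling over all probes, quantile normalization, a lower floor, the authors' table and without control replicate 1 (0 to 1 over arrays left out), each time miR-212 with Chlorendic Acid. The F test count, 0, became 1, miR-212, with quantile normalization and the authors' table, and 0 members were called higher in any setting.

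Replicate numbers did not pair the samples: same-numbered arrays of different groups correlated at a median of -0.059 (-0.810 to 0.754), other numbers at -0.0012. With replicate number as a block the differences were 2.00, 1.19, 0.47 and 0.72, and no member call changed. miR-188 and miR-212 have no value among miRNAs detected on all arrays. Signal near background limits miR-188, miR-212 and miR-500.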
